A study of Mus musculus with 38 samples.

Results

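The genes described here are 10 transcripts by which adipose stromal progenitors are recognised: Pdgfra, Pdgfrb, Dpp4, Cd34, Ly6a, Pi16, Dpt, Lum, Dcn and Fbn1. They were chosen by gene name on the array, and all 10 of 10 named genes were found among 29411 gene names. They were measured by 14 probes, 7 genes by 1 probe and 3 genes by more than 1. Each gene is described by its probe of highest mean level, and each of these 10 stood well above background on all 38 arrays.

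The arrays were hybridised with RNA of epididymal stromal vascular cells, the cells of the fat pad other than adipocytes, from C57BL/6J mice. The study followed these cells in time to ask how a high fat, high sucrose diet and a botanical formulation, KAL-1, alter gene expression. LFC mice ate a diet with 10% of calories from fat (10 arrays), and HFC mice ate the diet with more sucrose and 60% of calories from fat (10 arrays). HF5, HF20 and HF75 mice ate the HFC diet with 5, 20 or 75 µg of KAL-1 (6 arrays each). The mice were weaned at 3 to 4 weeks of age and then assigned at random to 5 groups of 30 animals. LFC and HFC have 1 array for each of 3 early days (D6, D10 and D14) and 7 weeks (W0, W3, W6, W9, W12, W15 and W18), and each dose has 1 array for each week from W3 on. The labels do not say whether an array holds 1 animal or a pool. There is no second array of any diet and time point, so a difference between diets was set against its spread over time points.

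Adipose stromal progenitors are fibroblast-like cells that lie around vessels and in the sheets of connective tissue of a fat pad, and some of them can become adipocytes. They carry receptors for platelet-derived growth factor, which promote their division and can hold back their differentiation, and surface proteins such as Cd34 and Sca-1 (Ly6a) that are used to sort them. A Dpp4-positive, Pi16-positive population of the interstitium is regarded as an early progenitor, while the secreted products Dpt, Lum, Dcn and Fbn1 build the collagen and microfibril network around the cells.

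Levels are log2 values relative to the 75th percentile signal of the same array, so that a probe at that percentile has a level of 0. That percentile serves as the brightness of an array. It was lowest on HF5 W12 (25.8 scanner units) and highest on HFC W0 (1983), and at 9 of 10 time points HFC exceeded LFC in brightness. The labels also call these cells infiltrating macrophages, and the macrophage genes Csf1r and Emr1 were well above background on 38 of 38 arrays. The stromal genes were present beside them on every array: Pdgfrb, Cd34, Ly6a, Lum and Dcn lay above the 75th percentile on 38 of 38 arrays and Pi16 on 37 of 37. Adipoq, an adipocyte product, was also well above background on all 38 arrays. In such mixed RNA, fewer cells of a type and less RNA per cell cannot be told apart.

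Sequences are shown for 2 reasons: the Fbn1 and Dpt promoters because these 2 genes had the largest differences between HFC and LFC and followed each other across arrays, and a run of bases from Dpp4 because 2 of its 3 probes read it in common. RefSeq (GRCm38.p6) gave a promoter for 6 of the 10 genes: Pdgfra, Dpp4, Cd34, Pi16, Dpt and Fbn1. The 250 bases before the start of each gene were searched on both strands for 5 motifs, with overlaps between motifs allowed. These were the TATA box as TATAAA, the CCAAT box by its own letters, the GC box as GGGCGG, the AP-1 site as TGANTCA and the TEAD site as GGAATG. Capitals mark a match, 5′ to 3′ on the strand of the gene.
Fbn1, chr2:125506439-125506688, minus strand: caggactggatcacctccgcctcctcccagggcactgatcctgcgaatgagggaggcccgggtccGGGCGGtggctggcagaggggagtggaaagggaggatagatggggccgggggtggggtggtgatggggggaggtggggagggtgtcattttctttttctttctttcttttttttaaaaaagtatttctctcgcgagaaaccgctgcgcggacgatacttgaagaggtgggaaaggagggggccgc
Dpt, chr1:164796413-164796662, plus strand: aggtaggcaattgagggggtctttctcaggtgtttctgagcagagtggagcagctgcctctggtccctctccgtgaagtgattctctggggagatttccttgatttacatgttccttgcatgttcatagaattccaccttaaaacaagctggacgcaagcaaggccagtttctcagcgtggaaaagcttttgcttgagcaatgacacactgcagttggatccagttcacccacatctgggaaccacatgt
Run shared by 2 Dpp4 probes: CAAAGCACTGACTTCTAAGT
The Fbn1 window held 1 GC box, 185 bases before the start, a motif present in 32.7% of 32851 promoter windows of this length. The Dpt window held none of the 5 motifs. The Fbn1 window was 59.2% G and C and the Dpt window 48.8%, against a median of 52.4% over all windows. Of the other 4 genes, Dpp4 held 1 match to the TATA box letters (12.4% of all windows), 227 bases before the start, and 1 TEAD motif (12.6%). Pi16 held 1 CCAAT box (33.8%), and Pdgfra and Cd34 held none of the 5. No AP-1 match was found in the 6 windows, and 6.75% of all windows hold one. The 20 shared bases of Dpp4 are the first 20 of the probe used here and the last 20 of its second probe, so that these 2 probes do not read separate stretches. The 2 Fbn1 probes, of 60 bases each, share no run longer than 6 bases.

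Among the receptors, Pdgfra is the receptor that marks fibroblast-like progenitors throughout adipose tissue. Its level in LFC ran from -1.07 (D6) over a median of 1.07 to 1.91 (W0), and in HFC from -0.01 (W6) over 1.85 to 1.99 (W0, n = 9). The HFC array at D10 has no value because its spot was marked as an outlier. The diets overlapped over most of their range, and the lowest 2 LFC arrays were the youngest, D6 at -1.07 and D10 at -0.40. In the doses the median was 1.67 in HF5, 1.37 in HF20 and 1.41 in HF75, and in all 3 the lowest array was W12, at -0.76, -0.25 and 0.22. The level was highest at W15 in all 3 doses, at 2.30 in HF5, 2.54 in HF20 and 1.98 in HF75. Pdgfra was thus the member whose dose arrays were lowest at one common week and highest at another.

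Pdgfrb, the receptor of mural cells that progenitors also carry, spanned 1.34 (W9) to 3.81 (W18) in LFC, with a median of 2.40. In HFC it spanned 1.55 (D10) to 2.85 (W15), with a median of 2.18, inside the LFC range. HF5 held the narrowest range of the 5 diets, from 2.65 to 3.12. HF20 reached the lowest Pdgfrb level of all 38 arrays, 0.82 at W12, and HF75 its own lowest, 1.46, at the same week.

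Among the surface proteins, Dpp4 is the peptidase that marks interstitial progenitors. In LFC it ran from -1.35 (D10) over a median of 0.18 to 1.02 (D14), and in HFC from 0.37 (W9) over 0.97 to 2.47 (W18, n = 9). The highest HFC array, W18, exceeded every other array of the series, and the LFC array of that week stood at -0.34. The dose medians were 0.69 in HF5, 1.08 in HF20 and 0.79 in HF75. HF5 W12, the dimmest array, was the lowest of all at -1.41.

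Cd34, the sialomucin used to sort progenitors and endothelial cells, lay between 3.73 and 6.32 on all 38 arrays. Its median was 5.49 in LFC, 5.58 in HFC, 5.56 in HF5, 5.27 in HF20 and 5.37 in HF75, and the diets overlapped throughout. Its lowest arrays in LFC and in HFC were both W6, at 3.73 and 3.78. Cd34 was saturated on 5 arrays, HFC D14, W0 and W9, HF20 W15 and HF75 W15, and those values are lower bounds.

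Ly6a, which encodes Sca-1, lay between 1.58 (D14) and 3.50 (W6) in LFC, with a median of 2.87. In HFC it lay between 1.70 (W9) and 3.03 (D6), with a median of 2.57. Its highest array was HF5 W6 at 4.18, and its lowest were HF75 W12 at 0.97 and HF5 W12 at 0.99. Every dose therefore had its lowest Ly6a level at W12, HF20 included at 1.54.

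Among the secreted products, Pi16 (peptidase inhibitor 16), a marker of interstitial fibroblasts, had a median of 2.41 in LFC and 2.50 in HFC (n = 9). It spanned 1.30 (W9) to 3.46 (D6) in LFC and 1.38 (W15) to 3.54 (W18) in HFC. The HF20 arrays held both its highest and its lowest level of the series, 4.51 at W6 and 0.43 at W12. W6 was the highest week in HF5 (3.49) and in HF75 (3.21) too.

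Of the matrix proteins, Dpt (dermatopontin, a collagen-binding protein) had the widest spread. In LFC it ran from -0.68 (W18) over a median of 2.04 to 3.03 (W0), and in HFC from 1.30 (W6) over 3.16 to 3.99 (W9). From D6 to W3 the 5 HFC arrays lay between 3.03 and 3.50, while the LFC arrays of those times lay between 0.17 and 3.03. The dose medians were 2.29 in HF5, 1.94 in HF20 and 2.88 in HF75. HF75 W3, the second dimmest array, was the lowest of all at -1.85.

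Lum (lumican, a proteoglycan that spaces collagen fibrils) had medians of 4.24 in LFC and 4.88 in HFC. Its range was 3.09 (W6) to 5.53 (W18) in LFC and 2.74 (W6) to 5.91 (D10) in HFC, and HFC D14, at 5.00, was saturated. Both control diets had their lowest Lum level at W6, as they had for Cd34. HF20 W12 was the lowest of the series at 2.42.

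Dcn (decorin, a proteoglycan that binds collagen and growth factors) was saturated on 34 of 38 arrays, all but LFC D6, LFC D10, HF75 W3 and HF5 W12. Its processed signal on the 34 arrays ran from 62574 to 91532 scanner units, so its level there is a lower bound set by the array's own percentile. Over these 34 arrays the level followed brightness with a Pearson correlation of -0.99. The values, with medians of 6.17 in LFC and 5.87 in HFC, are therefore not measurements of a difference between diets. On the 4 unsaturated arrays the level was 6.53 (LFC D6), 6.08 (LFC D10), 5.63 (HF75 W3) and 7.0 (HF5 W12).

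Fbn1 (fibrillin-1, the core of microfibrils) ran in LFC from 0.40 (W3) over a median of 1.23 to 3.24 (W0), and in HFC from 0.14 (W6) over 2.64 to 3.87 (W0). The LFC array at W0 stood well above the next one, W9 at 1.90. The dose medians were 1.67 in HF5, 2.21 in HF20 and 2.05 in HF75. The 3 dose arrays with levels below 0 were HF20 W12 at -0.96, HF5 W12 at -0.86 and HF75 W3 at -0.40.

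**Figure D1:**
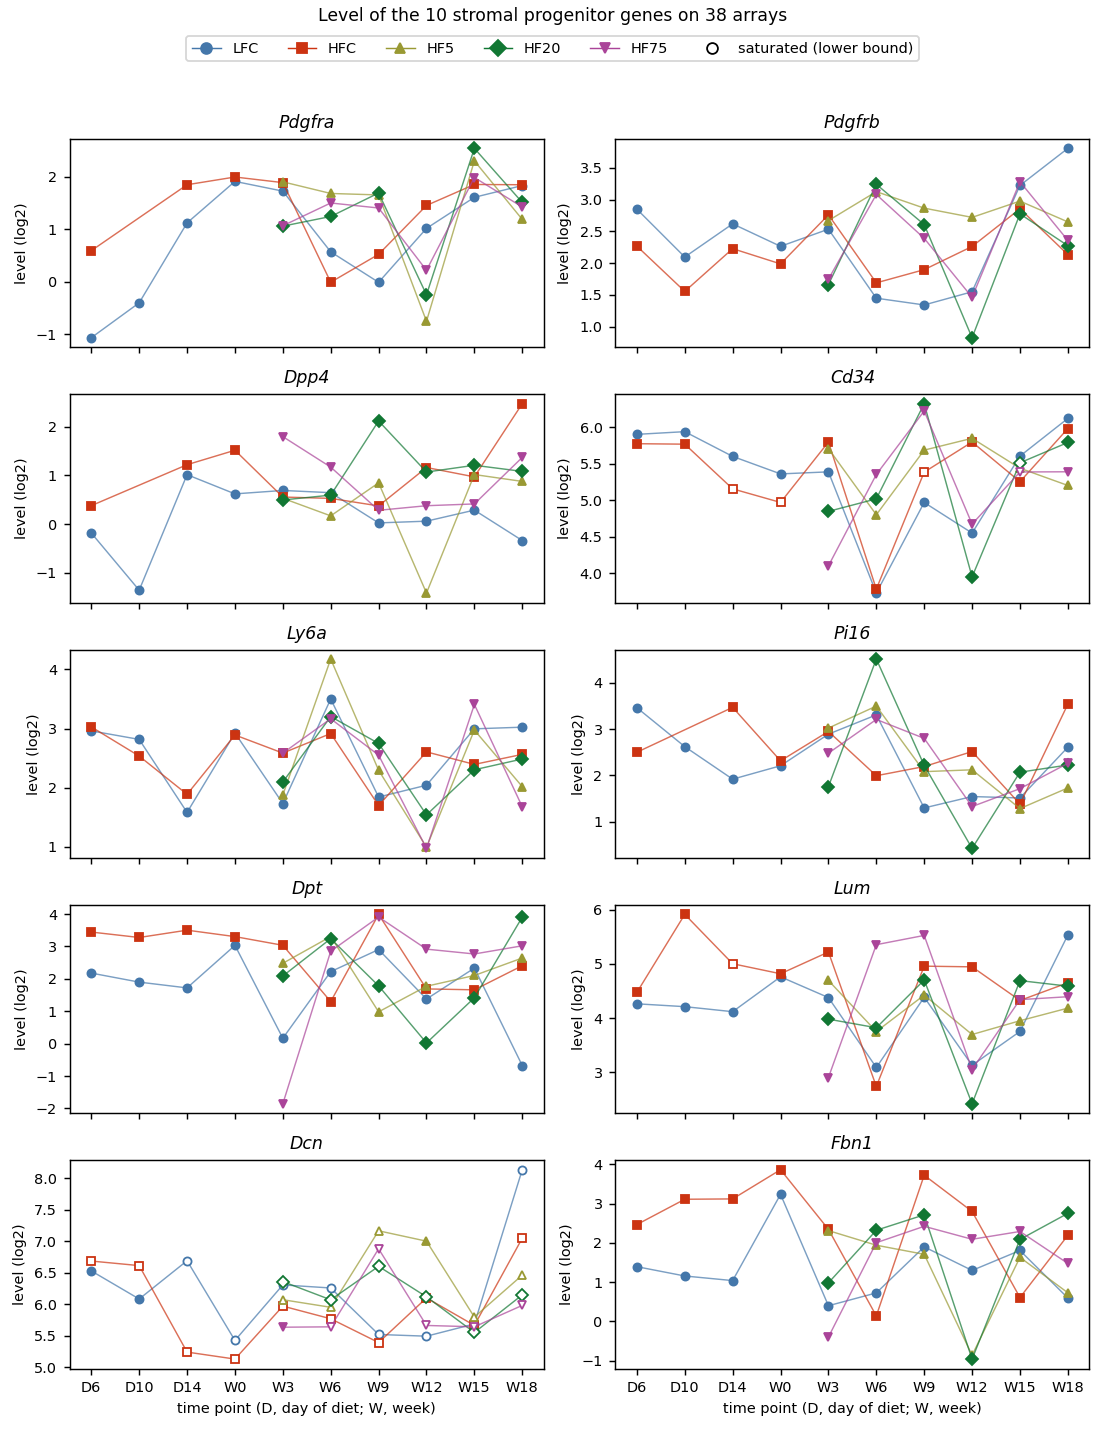
Level of each gene (log2, relative to the 75th percentile signal of the array) at each time point, with 1 point per array and 1 line per diet. Open symbols are saturated spots, which fill most of the Dcn panel (34 of 38 arrays). The W12 dose arrays are low for Pdgfra and Ly6a, and the HFC line lies above the LFC line at 8 of 10 time points for Fbn1 and Dpt.

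**Figure D2:**
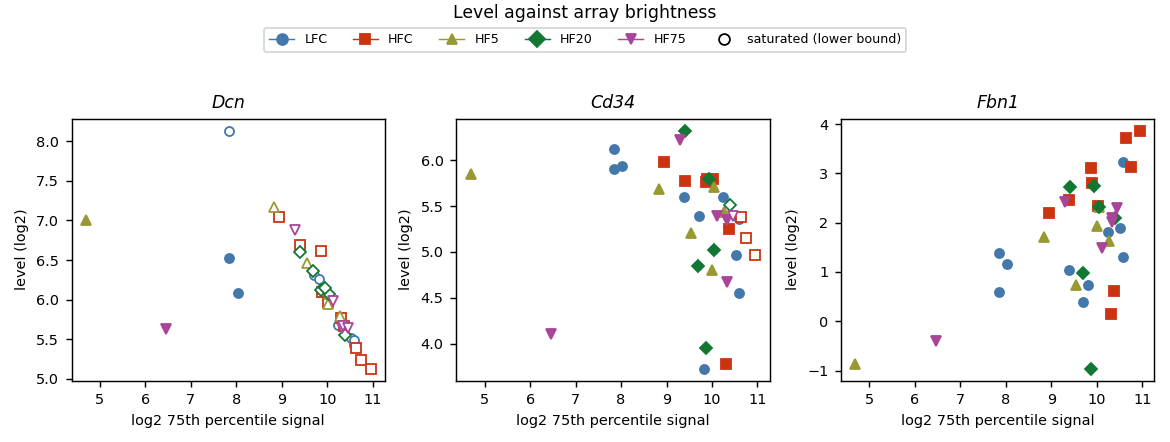
Level (log2) of Dcn, Cd34 and Fbn1 on each array against the brightness of the array (log2 of the 75th percentile signal), by diet. Saturated Dcn spots (open symbols) fall on a descending line (Pearson correlation -0.99 over 34 arrays), while Fbn1, saturated on no array, is higher on brighter arrays (0.56 over 38 arrays).

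The main question was whether the high fat diet altered these transcripts, and the answer was read from HFC minus LFC at each of 10 time points. Fbn1, Dpt and Dpp4 had the largest differences, all higher in HFC. Pdgfra, Lum and Pi16 were higher in HFC by less, Cd34 and Ly6a differed by 0.05 and -0.03, and Pdgfrb was lower in HFC. No difference is read for Dcn, whose saturated level follows brightness. No member passed an adjusted p of 0.05 (limma, Benjamini-Hochberg over 31203 probes), and 0 of these probes did (0%), the smallest adjusted p being 0.547.

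Fbn1 was higher in HFC at 8 of 10 time points. Its difference was 1.07, 1.96, 2.08 and 0.63 at D6, D10, D14 and W0, then 1.95, -0.59, 1.83, 1.5, -1.20 and 1.60 at W3 to W18. The 2 exceptions were W6 and W15. The mean was 1.08 (SE 0.34, SD 1.14 over 10 time points), a 2.12-fold difference, with an unadjusted p of 0.0076 and an adjusted p of 0.547 in the limma fit.

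Dpt was higher in HFC at 8 of 10 time points, with W6 and W15 again the exceptions at -0.92 and -0.67. The largest differences were 3.08 at W18 and 2.87 at W3, where the LFC arrays stood at -0.68 and 0.17 and the HFC arrays at 2.40 and 3.03. The mean was 1.04 (SE 0.39, SD 1.34), with an unadjusted p of 0.020 and an adjusted p of 0.547 in the limma fit.

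Dpp4 was higher in HFC at 7 of 9 time points, with D10 missing. Its mean was 0.71 (SE 0.28), with an unadjusted p of 0.032 and an adjusted p of 0.547 in the limma fit. Without W18, where the difference was 2.81, the mean was 0.44. The difference was small at W3 (-0.13) and W6 (-0.12).

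Lum was higher in HFC by 0.54 (SE 0.26) at 8 of 10 time points, and Pdgfra by 0.36 (SE 0.21) at 8 of 9. Their unadjusted p were 0.058 and 0.116 in the limma fit. Pi16 was higher by 0.23 at 6 of 9 time points (95% interval -0.43 to 0.89), and without the outlier marks at D10 this became 0.01. Pdgfrb was lower by 0.21 on average and lower at 6 of 10 time points, its difference of -1.67 at W18 being the largest. The interval of Cd34 was -0.34 to 0.44 and that of Ly6a -0.41 to 0.35 on the log2 scale. Cd34 was saturated on HFC D14, W0 and W9 and on no LFC array, so its difference is a lower bound.

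Of the 9 members other than Dcn, 7 were higher and 2 lower in HFC, with a median of 0.36 against 0.01 over all probes tested. An unadjusted p below 0.05 was reached by 3 members, all higher in HFC, where 9.05% of all probes reached it in either direction and 4.55% reached it as higher in HFC. The members moved unevenly by time point: without Dcn their median difference was highest at W12 (0.97, with 9 of 9 higher in HFC) and lowest at W6 (-0.58, with 2 of 9 higher). At W12 the median over all tested probes was also above 0, at 0.27, and the LFC array was below the gene's own median for 9 of 9 members. Only at W12 was the HFC array dimmer than the LFC array (949.6 against 1537.3 scanner units). HFC W12 had 4850 outlier spots and LFC W12 had 50. The adipocyte list stood at 2.58 above its mean on LFC W12 and at -0.21 on HFC W12. The part of these features in the W12 difference was not tested.

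**Figure D3:**
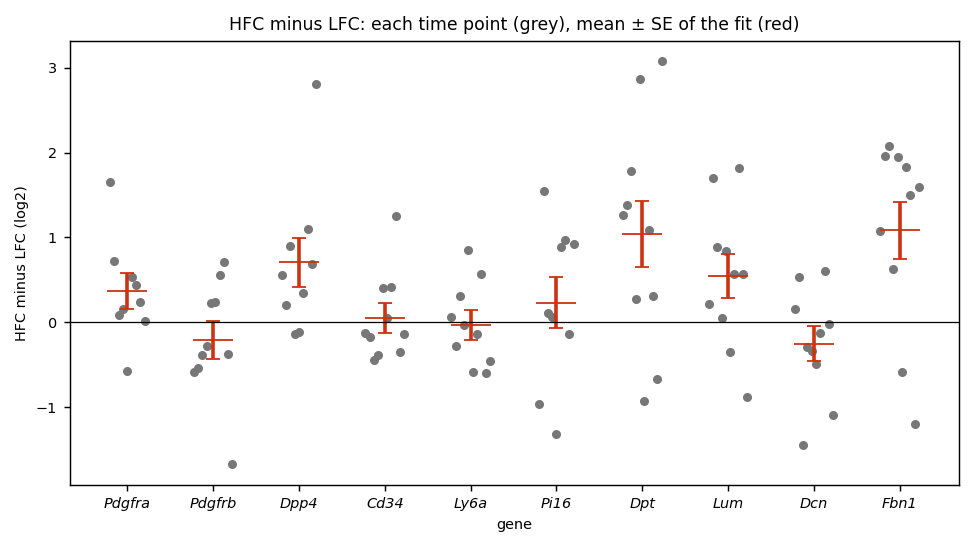
HFC minus LFC (log2) for each gene, with 1 grey point per time point (10, or 9 for Pdgfra, Dpp4 and Pi16) and the mean and its SE from the fit in red. Fbn1, Dpt and Dpp4 have the highest means (1.08, 1.04 and 0.71), and each has points on both sides of 0.

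The further probes gave the same direction for the 3 genes that have them. The second Fbn1 probe differed by 1.22 (SE 0.38) and followed the first with a correlation of 0.90 over 38 arrays. The 2 further Dpp4 probes differed by 0.95 (SE 0.30) and 0.87 (SE 0.30), and their correlations with the first were 0.93 and 0.38 over 37 arrays. The last of these was well above background on 10 of 10 HFC arrays and on 7 of 10 LFC arrays. The dimmer Pdgfra probe was well above background on 10 of 10 HFC arrays and on 6 of 10 LFC arrays, differed by 1.20 (SE 0.37), and correlated with the first at 0.41. The sizes of these 2 differences rest in part on LFC arrays not above background (D6, D10 and W18 for both probes, W9 also for Pdgfra). All 4 had an adjusted p of 0.547 in the limma fit.

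Other measures moved with this comparison. The macrophage list was higher in HFC for 13 of 13 genes (median 0.74). An unadjusted p below 0.05 in the limma fit was reached by 6 of them (4.55% of all probes as higher in HFC). The centred level of a list is the mean over genes of the level minus the gene's own mean over arrays. For the macrophage list it spanned -1.02 to 0.84 with a median of -0.42 in LFC, and -1.19 to 1.32 with a median of 0.33 in HFC. The brown fat list was lower in HFC for 5 of 6 genes tested (median -1.50), its centred level spanning -1.11 to 4.28 in LFC and -1.75 to 1.08 in HFC. The adipocyte list was lower for 10 of 11 genes (median -0.63), with a range of -1.54 to 2.85 in LFC and -0.74 to 2.80 in HFC. In that list Fabp4 was saturated on 34 of 38 arrays and Cfd on 9, so these levels are lower bounds, as for Dcn. With log2 brightness as a covariate the differences were 0.81 (SE 0.45) for Fbn1, 0.59 (SE 0.50) for Dpt and 0.64 (SE 0.38) for Dpp4. Of the defining markers, Csf1r and Adipoq stood well above background on 38 arrays and Ucp1 on 34. The part of these cells in the result was not tested.

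Brown fat transcripts were highest on 3 arrays. On LFC D6 and LFC D10 the brown fat list stood at 3.62 and 4.28 above its mean, and on HF5 W12 at 5.85. Pdgfra was lowest on LFC D6 and HF5 W12 of all arrays, and Dpp4 was lowest on HF5 W12 and LFC D10. Across 37 arrays, which differ in diet, time and brightness, the brown fat level correlated with Pdgfra at -0.70 and with Dpp4 at -0.76 (Spearman -0.46 and -0.61). Without D6 and D10 the differences between HFC and LFC were 0.20 for Pdgfra and 0.72 for Dpp4. The mesothelial list correlated with Pdgfra at 0.56 and with Dpp4 at 0.60 over the same arrays, and on HFC W18, the highest array of Dpp4, it stood at 2.77, the highest of the LFC and HFC arrays. The part of these cells in the differences was not tested.

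The second question was whether the levels drifted with age. No member passed in LFC or in HFC. Within a diet each time point is 1 array with a scan day of its own. Age and scan day therefore cannot be told apart in these slopes. Without Dcn, the slopes within LFC over 10 arrays lay between -0.07 and 0.06 log2 per week, with 4 upward and 5 downward, and within HFC between -0.08 and 0.04, again 4 and 5. Over all probes 49.2% of slopes were upward in LFC and 53.8% in HFC. Among the probes used, the smallest p in LFC was that of Pdgfra, at 0.06 per week (SE 0.04, unadjusted p 0.172 in the limma fit). The dimmer Pdgfra probe went the other way, at -0.02. The third Dpp4 probe had a slope of -0.07 in LFC (unadjusted p 0.068, adjusted p 0.997 in the limma fit). In HFC the smallest p was that of Dpt, at -0.08 per week (SE 0.04), with an unadjusted p of 0.059 and an adjusted p of 0.653 in the limma fit. In LFC, 0 of 28469 probes passed (0%) and 3.89% had an unadjusted p below 0.05, and in HFC 0 of 31096 passed (0%) and 7.88% did, against 0 of 10 members in each.

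The difference between the diets did not change detectably with time for any member. The coefficients lay between -0.05 and 0.08 log2 per week, the highest being Dpp4 at 0.08 (SE 0.04, unadjusted p 0.056, adjusted p 0.981 in the limma fit), or 0.02 without W18. Over all 31203 probes 0 passed (0%) and 4.36% had an unadjusted p below 0.05, against 0 of 10 members. D14 and W0 fall on the same elapsed day, but their arrays were scanned on different days and on different slides. The epididymal list stood at 5.86 on LFC D14 and -3.50 on LFC W0, and at 3.42 and 2.18 in HFC. The gap between D14 and W0 thus holds scan day and tissue content as well as the spread between arrays. From D14 to W0 Fbn1 differed by 2.20 in LFC and 0.74 in HFC, Dpt by 1.31 and -0.20, and Ly6a by 1.34 and 1.0.

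The third question was whether KAL-1 altered the levels of the high fat diet. In weeks 3 to 18, 7 of the 9 members other than Dcn were lower and 2 higher in the mean of the doses than in HFC, with estimates from -0.46 (Fbn1) to 0.22 (Pdgfrb) and a median of -0.16, against 0.01 over 33780 probes. Of these probes 51.9% were higher in the mean of the doses. No member passed, 0 of all probes did (0%), and 1.71% of all probes had an unadjusted p below 0.05 against 0 of 10 members. Fbn1 (SE 0.51) and Lum, at -0.34 (SE 0.36), were each higher in the doses at 2 of 6 weeks, so the direction of the mean was that of 4 weeks. Without W12 they stood at -0.0036 and -0.025. The HFC arrays are shared by this comparison, by HF5, HF20 and HF75 minus HFC, and by HFC minus LFC.

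By dose, the estimates of the same 9 members ran from -0.73 (Fbn1) to 0.57 (Pdgfrb) in HF5, from -0.44 (Lum) to 0.08 (Dpp4) in HF20 and from -0.32 to 0.12 in HF75. The standard errors reached 0.77, so that differences of this size could not be separated from the scatter left after the mean of each week was removed. All dose arrays of W9 were scanned on another day than HFC W9. The same holds for HF20 and HF75 at W3 and W18 and for HF75 at W6. Dose and scan day cannot be told apart on those arrays, and the time point block does not remove this. HF5 had the smallest member p, for Dpp4, lower by 0.67 (SE 0.40, unadjusted p 0.104, adjusted p 0.9995 in the limma fit), and Pdgfrb was higher in HF5 at 5 of 6 weeks. HF5 W12, the dimmest array, stood 2.57 below HFC for Dpp4, and without W12 the mean was -0.29. The second Dpp4 probe was lower in HF5 by 0.94 (unadjusted p 0.049, adjusted p 0.9995 in the limma fit) and higher at 0 of 6 weeks. Without W12 its mean was -0.37. The third Dpp4 probe was lower by 0.49, and by 0.86 without W12. Neither further probe was well above background on HF5 W12, nor the third on HF5 W9. No probe passed in any dose (0%, 0% and 0%), and an unadjusted p below 0.05 was found for 4.72%, 1.54% and 1.96% of probes in HF5, HF20 and HF75, against 0 of 10 members in each.

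Single arrays carried much of the variation. HF20 W12 had the lowest level of the series for 4 of 10 members (Pdgfrb, Pi16, Lum and Fbn1), and 8 of the 9 members other than Dcn were below their own median there. The mean of these 9, each centred on its own mean, was -1.5 on this array, the lowest of all 38. The macrophage list (-2.12), the adipocyte list (-2.74) and the endothelial list (-1.49) were at their lowest on the same array, which had 87.3% of probes well above background. The epididymal list stood at 4.25 there, the highest of the HF20 arrays, and the sperm list at 2.11.

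HF5 W12 was the next lowest array for these members, at -0.94. HF75 W3 followed at -0.91, with a brightness of 88.4 scanner units, the macrophage list at -1.89 and the epididymal list at 3.91. HFC W6 stood at -0.83, with 8 of 9 members below their median and with lymphocyte genes at 3.33 and muscle genes at 1.77. At the other end were HFC D10, at 0.63 from 6 members, and HFC W18, at 0.58. LFC had its highest mean at W0, 0.42, and its lowest at W12, -0.67.

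The members did not form a single unit across arrays. Over the 45 pairs the median Pearson correlation was 0.23, 36 pairs were positive, and 5 exceeded 0.5. Without Dcn, 32 of 36 pairs were positive, with a median of 0.26, and 5 exceeded 0.5. The correlations are descriptions over 37 or 38 arrays that share time points, diets and brightness. Cd34 and Lum correlated at 0.76 (Spearman 0.57), at 0.71 without the 2 arrays farthest from the median of Cd34, and at 0.74 after the mean of each time point was removed. Dpt and Fbn1 correlated at 0.72 (Spearman 0.75), at 0.71 without the 2 extreme arrays, and at 0.70 within time points.

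The other pairs above 0.5 were Lum and Fbn1 (0.64), Pdgfrb and Cd34 (0.56) and Pdgfra and Dpp4 (0.56). Within time points Pdgfrb and Cd34 stood at 0.82 and Pdgfra and Dpp4 at 0.37. Dpp4 correlated with no matrix product beyond 0.26, and Dpp4 and Pi16, the pair used to mark interstitial progenitors, correlated at 0.04. The lowest values were for Dcn with Fbn1 (-0.30) and Dcn with Dpt (-0.27), pairs in which Dcn is mostly saturated.

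**Figure D4:**
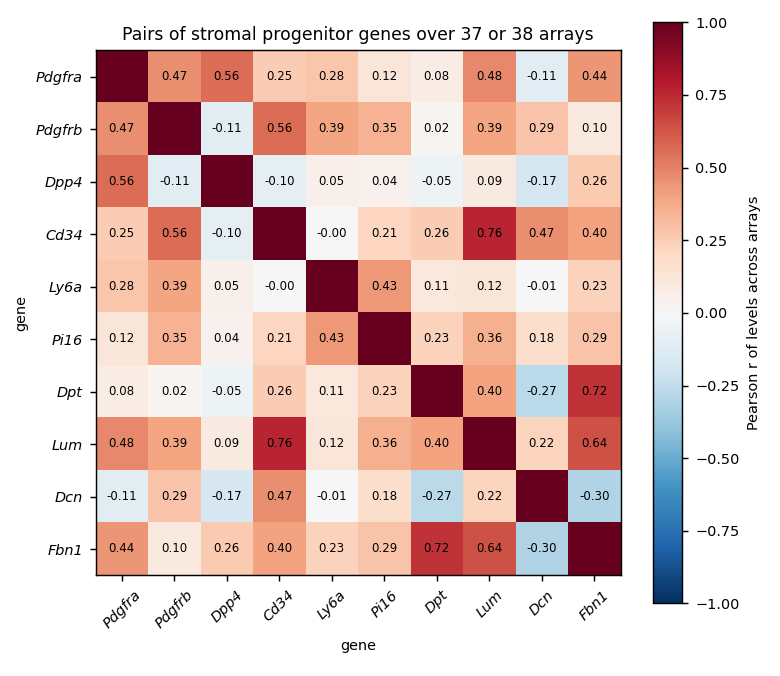
Pearson correlation of the levels of each pair of genes across 37 or 38 arrays, on a colour scale from -1 (blue) to 1 (red). Cd34 with Lum (0.76) and Dpt with Fbn1 (0.72) are the highest, and Dpp4 with Pi16 is near 0 (0.04).

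Among 29380 other probes well above background on at least 0.5 of the arrays, those most like the mean of the 10 members were led by Thbs3 (thrombospondin-3), with a correlation of 0.88. The next were Bmp1 (the procollagen C-proteinase) at 0.87, Tnxb (tenascin-X) at 0.84, Fstl1 at 0.84 and Antxr1 at 0.84. Rcn3, Loxl1, Dnm1, Fndc1 and Tmeff2 completed the first 10, at 0.81 to 0.83. These are the highest of many and are given as a description over 38 arrays. The mean of the members includes Dcn, which was saturated on 34 of them.

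Each member other than Dcn, for which saturation leaves no like gene to give, also had a closest gene of its own. The likeness was 0.89 for Pdgfra with Cyp1b1 and 0.86 for Pdgfrb with Ehd4. Dpp4 was closest to Cobl (0.80), Cd34 to Grb10 (0.81), Ly6a to Nfkb1 (0.83) and Pi16 to Pcolce (0.74), the enhancer of procollagen C-proteinase. Among the matrix products, Dpt was closest to Fn1 (fibronectin, 0.87), Lum to Col14a1 (0.83) and Fbn1 to Loxl1 (a lysyl oxidase of elastic fibres, 0.88). No gene was the closest of more than 1 of these 9.

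The related gene lists place these values in their families. Of the genes of microfibrils and elastic fibres other than Fbn1, 12 of 13 were higher in HFC, with a median of 0.61. Mfap5 (1.14, SE 0.30, higher at 9 of 10 time points), Eln (0.70), Emilin1 (0.69) and Efemp1 (0.76) had the smallest p. The small leucine-rich proteoglycans, the family of Lum and Dcn, were higher in HFC for 10 of 11 genes tested of 12, with a median of 0.46 and with Fmod (1.33, SE 0.45) first. In these lists 5 and 4 genes had an unadjusted p below 0.05, all higher in HFC, as 4.55% of all probes did.

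The interstitial progenitor list, the genes that accompany Dpp4 and Pi16, was higher in HFC for 10 of 12 genes, with a median of 0.66. Dact2 (0.90, SE 0.25), Efhd1 (0.70), Cd55 (0.64) and Sema3c (0.85) had the smallest p, and 5 of 12 had an unadjusted p below 0.05 (4.55% of all probes as higher in HFC). The committed preadipocyte list was mixed, with 9 of 15 higher and a median of 0.22, Clec11a being higher by 0.79 and Pparg lower by 1.14 on the log2 scale. Of the other fibroblast genes 9 of 14 were higher, with a median of 0.20. An unadjusted p below 0.05 was reached by 3 of them as higher in HFC (4.55% of all probes) and by 1 as lower. Clec3b (tetranectin) was higher in HFC at 10 of 10 time points by 1.05 (SE 0.25, unadjusted p 0.0013 in the limma fit). In this list Gsn was saturated on 34 arrays and Col1a2 on 24, among others, and those values are lower bounds.

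The mesenchymal surface list was divided, with 5 of 10 higher and a median of -0.03. Of the 4 ligands of the 2 receptors, Pdgfb was lower in HFC by 0.84 (SE 0.35) and Pdgfc higher by 0.44 (SE 0.31), while Pdgfa differed by -0.08 and Pdgfd by 0.09. None of the genes of these lists passed, their smallest adjusted p being 0.547 in the limma fit. For scale, 50.7% of all tested probes were higher in HFC, and their median was 0.01.

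**Figure D5:**
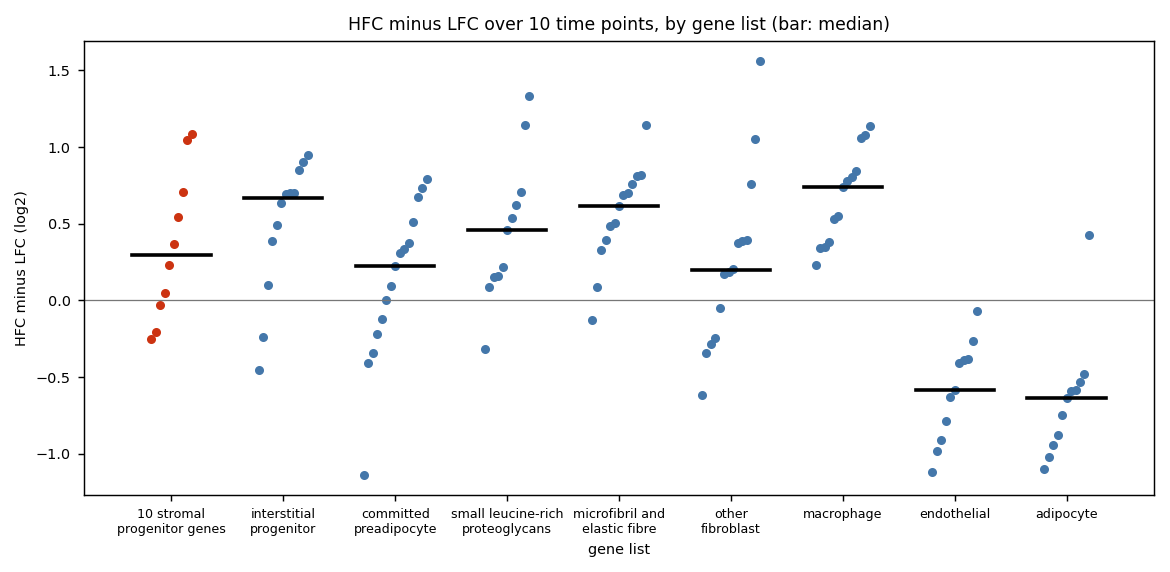
HFC minus LFC (log2, mean over time points) of every gene tested in each list, 1 point per gene, with the median as a bar and the 10 stromal progenitor genes in red. The microfibril, proteoglycan and interstitial progenitor lists have medians of 0.61, 0.46 and 0.66, and the endothelial and adipocyte lists have medians below 0. Saturated genes, such as Dcn and Fabp4 (34 of 38 arrays each), are among the points.

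The remaining cell type lists were counted in the same comparison. Higher in HFC were 10 of 10 mesothelial genes (median 1.79), 13 of 14 epididymal genes (median 2.03), 9 of 9 sperm genes tested (median 1.28) and 11 of 13 lymphocyte genes (median 0.39). Lower in HFC were 11 of 11 endothelial genes (median -0.59), 10 of 10 muscle genes (median -1.05), 8 of 11 pericyte genes (median -0.16) and 5 of 6 erythroid genes (median -0.27). Of the pericyte genes, Tagln, Acta2 and Myh11 were saturated on 25, 23 and 15 arrays. Of the erythroid genes, Hbb-b1 and Hba-a1 were saturated on 20 and 13 arrays. Those values are lower bounds, as for Dcn, so the counts of these lists rest in part on saturated spots. Across 38 arrays the mean of the members correlated at 0.70 with the macrophage list, 0.32 with the mesothelial list, 0.14 with the pericyte list, -0.13 with the epididymal list and -0.38 with the brown fat list. Single members followed some lists more closely than their mean did. Fbn1 correlated with the macrophage list at 0.76 and Dpt at 0.59, and Ly6a with the lymphocyte list at 0.61. Pdgfrb correlated with the endothelial list at 0.62 and with the pericyte list at 0.56. Dpp4 went the other way with the endothelial list, at -0.50 over 37 arrays. The part of these cell types in the differences of the members was not tested.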

How the data were processed

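The material was RNA of epididymal stromal vascular cells on 38 one-colour Agilent arrays of 5 diets. Per the file headers, the deposited intensity values were made with Feature Extraction 10.5.1.1, where the submitters' processing notes name 9.1: the processed signal is corrected for background and detrended, without scaling across arrays, and the foreground mean and background median are unprocessed. The authors' series table holds log2 ratios to the LFC array of the time point and was not used. Files of the W9 dose arrays hold rounded values.

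Of 45220 spots per array, the 43803 non-control spots of 40628 probes were used. Outlier spots (15 to 6257 per array) were set to missing, log2 of the processed signal minus that of the array's 75th percentile was taken, and spots of a probe were averaged. Saturated spots were kept, as lower bounds. Where D10 of HFC was missing (Pdgfra, Dpp4 and Pi16), HFC minus LFC rests on 9 time points. The 10 members and all lists were chosen with earlier results of these data known. Each member is its probe of highest mean level, for lists the genes of smallest p (at most 4) are named, and like-pattern genes are the 10 of highest Pearson correlation with the members' mean and the best for each member. All 10 members matched RefSeq by accession.

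A probe was tested where 0.5 or more of the arrays of any diet in the fit showed it well above background. Tests used limma 3.58.1 in R 4.3.3 (lmFit and eBayes, two-sided, Benjamini-Hochberg over all probes, threshold 0.05), with time point as a block except for slopes within a diet. Weeks were counted from day 14 as the study does. The source name gave the dose. For HF5 and HF20 of W15 and W18 (4 arrays) another field gives the opposite dose, which was tried. The fits were tested on simulated data. Alternatives were quantile scaling, normexp with an offset of 50, other filters, saturated spots missing, the mean of all probes, brightness as covariate, time points left out, no block and scan day as block. An unpaired t-test of HFC against LFC arrays with time points pooled was also run. Outlier spots kept was added after the data were seen. Nothing says that arrays are separate animals, so p-values measure only the spread between these arrays. Depth has no counterpart on arrays, and their number limits the precision.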

Additional observations from a re-analysis of the deposited data

Results flagged for a closer look

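In 50 groups of 6 to 10 arrays (each gene in each diet), 9 had a highest or lowest array set apart by more than Dixon's critical value, where chance gives about 2.5. HF5 W12, the dimmest array, was low for Pdgfra (-0.76, next 1.18) and for Dpp4 (-1.41, next 0.17). HFC W6 was low for Cd34 (3.78, next 4.97) and for Lum (2.74, next 4.33). HF75 W3, the second dimmest array, was low for Dpt (-1.85, next 2.77) and for Fbn1 (-0.40, next 1.48). LFC W0 was high for Fbn1 (3.24, next 1.90). LFC W18 (8.14) and HF75 W9 (6.88) were high for Dcn, both saturated and so lower bounds. The cause of these values was not tested.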

How the results depend on the processing

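In each of the 8 comparisons, 0 probes passed an adjusted p of 0.05 under every alternative run, as in the values reported (limma; counts at an unadjusted p below 0.05 run from 519 to 2824). An unpaired t-test of the HFC against the LFC arrays, with all time points pooled, gave 0 of 31203 probes after Benjamini-Hochberg. At an unadjusted p below 0.05 it gave 1105 of 31203 probes, 3 members among them. It differs from the t-test of the methods, which compares control and treated replicates at a time point. Single arrays do not allow that test. Fbn1, Dpt, Dpp4, Lum, Pdgfra and Pi16 stayed higher in HFC under all 22 alternatives, from 0.81 to 1.34 for Fbn1, 0.59 to 1.26 for Dpt, 0.44 to 0.87 for Dpp4 (the lowest without W18) and 0.01 to 0.43 for Pi16. The median of the 10 members, Dcn included, was 0.18 to 0.45. With no replicate block (no time point pairing) it was 0.35, against 0.30. Some directions turned: with quantile scaling Ly6a was 0.10 and Dcn 0.094, with normexp 0.0026 and 0.033, with brightness as covariate Pdgfrb was 0.18 and Ly6a 0.066, and without W9 and W12 Cd34 was -0.15, Fbn1 in the mean of doses 0.36 and Lum in HF20 0.037. With single time points left out Ly6a ran from -0.13 to 0.032 and Cd34 from -0.083 to 0.11. Over all 22 alternatives Cd34 ran from -0.15 to 0.44. In the mean of doses the median of the 10 members, -0.11, was -0.30 to 0.096 with single weeks left out (above 0 without W3, W12 or W18) and 0.032 without W9 and W12, Fbn1 ran from -0.94 (without W6) to -0.0036 (without W12) and Lum from -0.72 to -0.025 (the same weeks). Dpp4 in HF5 ran from -0.90 to -0.29 (without W12), and its change with time was 0.021 without W18. The cause was not tested. All 38 arrays are single and 34 Dcn values are lower bounds, so that Dcn gave no value with saturated spots missing.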
